A study of Mus musculus with 12 samples.

Results

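Of 3294 c-Fos peaks on mouse chromosomes 1 to 19 and X, 787 (23.9%, exact 95% interval 22.4 to 25.4) lay inside protein-coding genes of intermediate length, at least 100 kb and under 500 kb. A peak belonged to this set when its midpoint lay inside a protein-coding gene, more than 1 kb from every protein-coding gene end, and the longest gene around it was of that length. These peaks are called intragenic peaks below, and the gene around each is its host. The list itself held 3295 peaks, of which 1 lay on an unplaced sequence. The choice used positions and gene lengths, and no signal. The 521 hosts ran from 100.116 kb (Map2k4) to 494.798 kb (Lrrc7), and 783 of the 787 midpoints lay in 1 protein-coding gene while 4 lay in more than 1.

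The peaks came from CUT&RUN, in which an antibody guides a nuclease to cut out the DNA around a bound protein, on nuclei from the CA1 field of the hippocampus. All 12 samples were from C57BL/6 mice of 3 to 4 weeks with the genotype CaMK2a-Cre/+; LSL-Sun1-GFP/+, in which Cre made under the CaMK2a promoter switches on a green nuclear envelope tag in excitatory forebrain neurons, and tagged nuclei were sorted. Kainic acid, which activates kainate-type glutamate receptors and drives strong firing, or phosphate buffered saline (PBS) had been given 2 to 3 h earlier, and 50000 nuclei per reaction met a c-Fos antibody or rabbit IgG, with 3 samples in each of the 4 groups. The labels do not say whether a sample pooled animals. A single list of positions, named as replicated c-Fos peaks against IgG after kainic acid, was used. It gives no signal and no value per sample, so read depth is unknown, no spread between replicates can be given, and a difference from PBS was not analysed here.

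c-Fos pairs with a Jun protein to form AP-1, a transcription factor that neurons make after strong activity. AP-1 binds a short palindromic DNA element, in promoters and, more often, in enhancers far from them. Introns of long neuronal genes hold many such enhancers, which can act on the host gene or on another gene nearby. Long genes are common among those that encode neuronal receptors, channels, adhesion molecules and regulators of cell shape.

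Sequence was available for windows around annotated transcript starts (RefSeq, GRCm38.p6, the assembly that mm10 represents), each with 250 bases before the start and 50 after it. Of the 787 intragenic peaks, 11 (1.40%, exact interval 0.700 to 2.49) overlapped at least 1 such window, and together they met 13 windows. In every case the annotated start itself lay inside the peak. By comparison, 154 of 220 peaks at gene ends (70.0%) overlapped a window, as did 26 of 434 in short genes (5.99%), 4 of 378 in very long genes (1.06%) and 46 of 1475 outside genes (3.12%). Of the 13 windows, 6 were internal starts of the host itself (in Mrtfb, Nebl, Lekr1, Prdm10 and Elavl2, the last with 2 starts under 1 peak) and 7 were starts of long noncoding RNAs within the host.

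The exact letters TGANTCA, which read the same on both strands and include the classical AP-1 element, were found in 7 of these 13 windows (53.8%, exact interval 25.1 to 80.8). They were found in 2565 of all 32851 windows (7.81%) and in 52 of 325 windows overlapped by peaks elsewhere (16.0%). Most of those peaks elsewhere were at gene ends (154), with 26 in short genes, 4 in very long genes and 46 outside genes. The 13 windows are internal or noncoding starts, and windows of like location were not compared separately. The 7 matches lay 25.5 to 575.5 bp from the midpoint of the peak. They lay inside the peak by necessity, because each of these 7 windows was wholly inside its peak. Counted by peak, 7 of the 11 had a match. Windows that share a peak, in Elavl2 and Prdm10, are not independent, which the exact interval ignores. The narrower letters TGACTCA on either strand, searched after the matches had been seen, were in 5 of the 13 windows (38.5%) and in 5.20% of all windows. The cAMP response element TGACGTCA, which does not contain TGANTCA, was in 1 of the 13 windows (7.69%) and in 1.79% of all. In windows overlapped by peaks elsewhere it was in 24 of 325 (7.38%). The letters CANNTG (E-box), also searched, were in 12 of the 13 windows, in 72.3% of all and in 65.2% of those under peaks elsewhere. A match is a description of letters in this window, and the windows are few.

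The 250 bases before the start are shown for the 4 windows with TGANTCA there, for the window with TGACGTCA, and for 1 host start with neither. Capitals mark these letters. Sequences run from 5′ to 3′ on the strand of the transcript. Mrtfb encodes a coactivator of serum response factor, and its internal start lay 102 kb into the gene, on the plus strand (chr16:13358171-13358420). Gm35431 starts inside Zfp385b, a zinc finger gene (plus strand, chr2:77765012-77765261). Gm35261 starts inside Filip1, which encodes a filamin-binding protein (plus strand, chr9:79927318-79927567). 2310075C17Rik starts inside Arpp21, which encodes a cAMP-regulated neuronal phosphoprotein (plus strand, chr9:112227206-112227455). The start in Lekr1 (plus strand, chr3:65665978-65666227) and that in Prdm10, a zinc finger gene (plus strand, chr9:31280299-31280548), belong to the hosts.
Mrtfb: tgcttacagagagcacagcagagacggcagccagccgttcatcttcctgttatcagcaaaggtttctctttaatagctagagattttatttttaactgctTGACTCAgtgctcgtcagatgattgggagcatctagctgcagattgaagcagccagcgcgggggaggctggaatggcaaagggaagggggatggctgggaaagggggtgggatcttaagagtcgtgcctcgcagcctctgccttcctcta
Gm35431 in Zfp385b: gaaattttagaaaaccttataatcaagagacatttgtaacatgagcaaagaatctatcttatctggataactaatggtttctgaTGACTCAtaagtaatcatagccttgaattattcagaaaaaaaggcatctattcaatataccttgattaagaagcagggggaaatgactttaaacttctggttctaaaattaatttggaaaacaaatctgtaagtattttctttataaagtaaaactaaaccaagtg
Gm35261 in Filip1: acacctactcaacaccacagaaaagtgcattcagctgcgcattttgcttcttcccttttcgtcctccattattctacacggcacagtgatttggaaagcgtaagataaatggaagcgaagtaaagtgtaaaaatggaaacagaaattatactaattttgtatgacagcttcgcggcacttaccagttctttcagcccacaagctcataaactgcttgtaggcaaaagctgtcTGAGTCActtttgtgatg
2310075C17Rik in Arpp21: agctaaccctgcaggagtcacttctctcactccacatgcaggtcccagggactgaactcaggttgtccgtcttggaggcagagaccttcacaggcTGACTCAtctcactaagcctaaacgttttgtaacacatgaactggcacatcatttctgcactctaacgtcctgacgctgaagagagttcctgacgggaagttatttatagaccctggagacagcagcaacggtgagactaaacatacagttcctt
Lekr1: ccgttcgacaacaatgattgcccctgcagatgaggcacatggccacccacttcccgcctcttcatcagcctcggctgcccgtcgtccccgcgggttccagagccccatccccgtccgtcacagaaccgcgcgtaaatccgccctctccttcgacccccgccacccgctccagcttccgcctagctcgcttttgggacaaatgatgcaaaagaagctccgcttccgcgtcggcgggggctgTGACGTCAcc
Prdm10: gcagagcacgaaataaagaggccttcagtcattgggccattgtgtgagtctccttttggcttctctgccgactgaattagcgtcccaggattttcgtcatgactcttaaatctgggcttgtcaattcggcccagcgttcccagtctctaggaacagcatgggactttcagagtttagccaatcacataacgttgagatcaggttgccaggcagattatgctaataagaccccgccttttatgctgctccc

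The first base of the marked element lay 150 bases before the start in Mrtfb, 166 in Gm35431, 18 in Gm35261 and 155 in 2310075C17Rik. In Lekr1 the marked cAMP response element began 10 bases before the start, and another lay just after it. The peak in Mrtfb (chr16:13357544-13358744) was 1201 bp wide and that in Arpp21 (chr9:112226758-112228996) 2239 bp. In Pam, which encodes the enzyme that amidates neuropeptides, the matching letters lay after the start of the noncoding RNA B230216N24Rik. Those in Nebl, an actin-binding protein gene, and in Ano6, a lipid scramblase gene, also lay after a start. The starts of the noncoding RNAs Gm46830 in St6galnac5 and Gm10910 in Prdm10 had neither element. Elavl2, which encodes a neuronal RNA-binding protein, had a peak of 1433 bp over 2 starts 23.6 kb into the gene, with neither element in the windows. The starts of the hosts themselves, where windows were available, lay mostly far from the peak. There TGANTCA was in 38 of 600 windows (6.33%). It was in 96 of 1811 windows of mid-length genes without a peak (5.30%), with overlapping exact intervals. No intragenic peak overlapped a microRNA hairpin of the 1005 searched. Other peaks were not searched for hairpins, so no contrast is drawn from this.

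Intragenic peaks were denser than peaks outside genes. There were 1.89 per Mb (exact Poisson interval 1.76 to 2.03) of the 417 Mb in which a midpoint would have counted, against 0.982 per Mb (0.932 to 1.03) outside protein-coding genes and 1.14 (1.04 to 1.26) in genes under 100 kb. Genes of 500 kb or more had 1.99 per Mb, with an interval that overlaps that of the mid-length genes. Sequence within 1 kb of gene ends had 2.82 (2.46 to 3.22). These intervals cover counting error over peaks, peaks near one another are not independent, and no test was made. The sequence lengths include assembly gaps and any sequence where reads cannot be placed uniquely. How far this affects the contrast between locations was not tested.

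**Figure D1:**
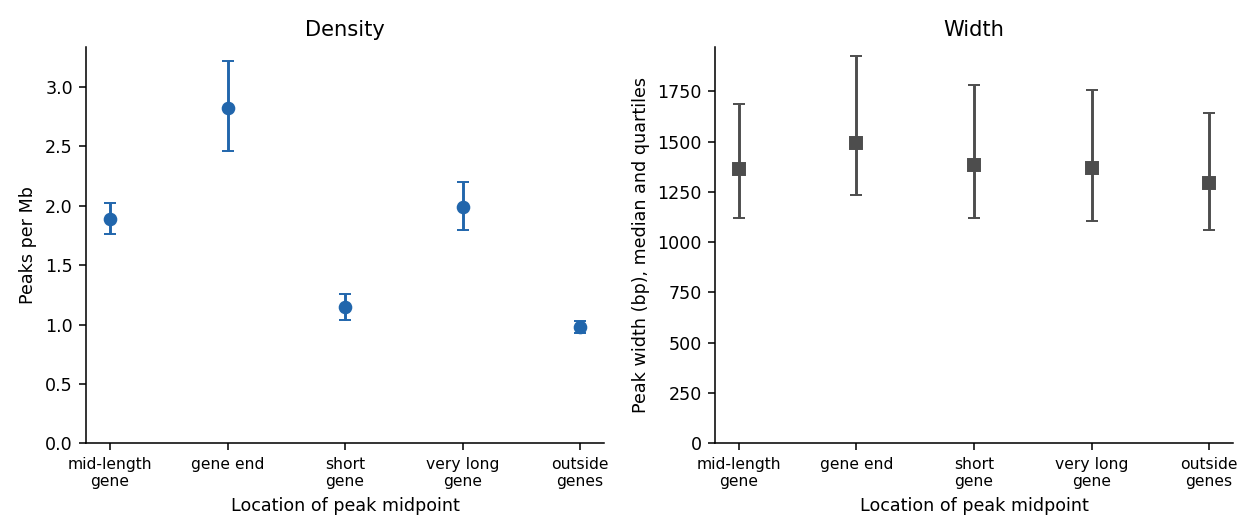
Left, c-Fos peaks per Mb of sequence (points, exact 95% Poisson intervals) by location of the peak midpoint. Right, peak width in bp (squares, median; bars, quartiles). Mid-length genes had 1.89 peaks per Mb and a median width of 1361 bp.

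Widths differed somewhat between locations. The 787 intragenic peaks had a median width of 1361 bp (quartiles 1120.5 and 1685, range 299 to 6933), with an interval for the median of 1322 to 1395 bp. The median was 1494 bp (1414 to 1609) at gene ends and 1295 bp (1271 to 1315) outside genes, and neither interval overlapped that of the intragenic peaks. In short genes it was 1385 bp (1321 to 1468) and in very long genes 1367.5 bp (1324 to 1449), and both intervals did overlap it. At 2 kb or more were 110 intragenic peaks (14.0%, interval 11.6 to 16.6), 21.4% (16.1 to 27.4) of those at gene ends and 12.2% (10.6 to 14.0) of those outside genes. The share was 17.7% (14.3 to 21.7) in short genes and 15.9% (12.3 to 20.0) in very long genes. The widest intragenic peak lay in Atxn1, whose protein is a transcriptional corepressor mutated in spinocerebellar ataxia (chr13:45617982-45624914, 6933 bp). It was followed by peaks in Slc24a2, which encodes a potassium-dependent sodium-calcium exchanger (6205 bp), in Nell2, which encodes a secreted EGF-like glycoprotein of neurons (5104 bp), and in Gria1, an AMPA receptor subunit gene (5036 bp). St6galnac5, a ganglioside sialyltransferase gene, had one of 4756 bp and Msra one of 3819 bp. Width is no measure of binding strength.

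Of 2198 protein-coding genes of this length, 521 (23.7%) hosted at least 1 peak. The share was higher in longer genes, which offer more sequence, from 149 of 968 genes of 100 to 150 kb (15.4%, exact interval 13.2 to 17.8) to 59 of 125 genes of 400 to 500 kb (47.2%, 38.2 to 56.3). In between it was 22.5% at 150 to 200 kb, 28.2% at 200 to 300 kb and 42.0% at 300 to 400 kb. Per Mb the range was narrower, 1.62 (1.40 to 1.88), 1.81, 1.93, 2.18 and 2.09 (1.72 to 2.51) in the same order, with overlapping intervals at the shortest and longest genes. Hosts had a median length of 206 kb and genes without a peak 151 kb. The comparisons of gene lists therefore also give the share in all genes of the same length bands.

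**Figure D2:**
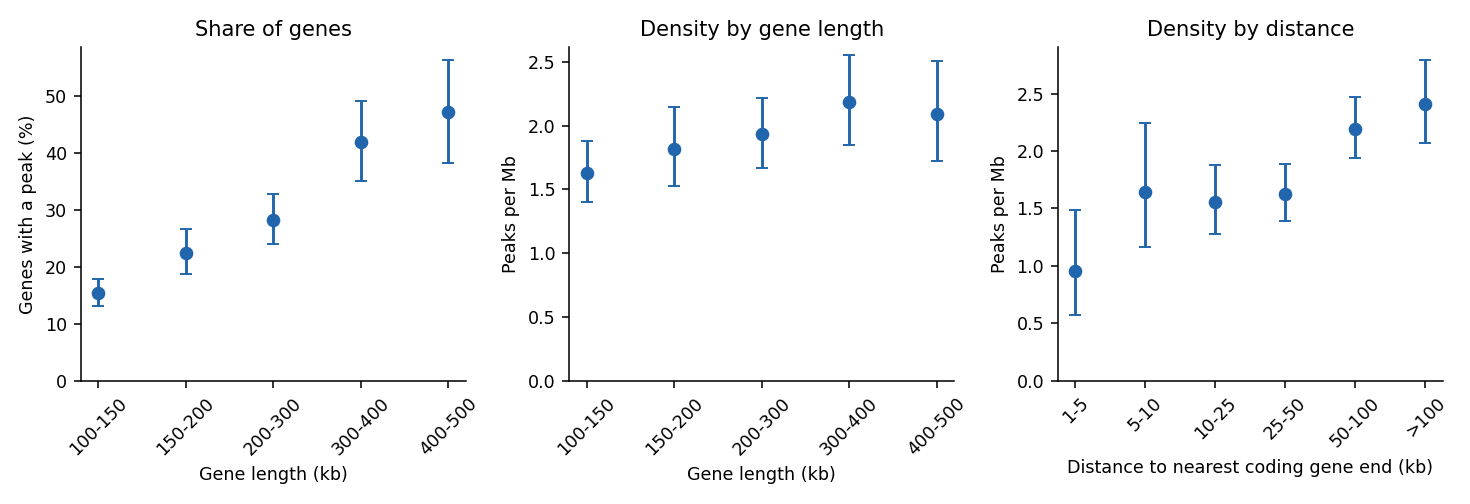
Left, share of genes with an intragenic c-Fos peak by gene length. Middle and right, peaks per Mb by gene length and by distance from the midpoint to the nearest protein-coding gene end. Points carry exact 95% intervals. The share of genes rose from 15.4% to 47.2%, and the density was lowest, 0.953 per Mb, 1 to 5 kb from a gene end.

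Intragenic peaks were sparse 1 to 5 kb from gene ends and denser deep within genes. The sequence within 1 kb of gene ends, which the rule leaves out, had 2.82 peaks per Mb. Between 1 and 5 kb from the nearest gene end there were 19 peaks, 0.953 per Mb (0.574 to 1.49). From 5 to 50 kb the density was 1.56 to 1.64 per Mb. It was 2.19 (1.94 to 2.47) from 50 to 100 kb and 2.41 (2.07 to 2.79) beyond 100 kb, where 178 peaks lay. Only genes over 200 kb have sequence that deep, so gene length and depth within the gene were not separated here. The median intragenic peak lay 56.7 kb from the nearest gene end.

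The strand of 394 hosts, with 578 peaks, could be read from the start windows, and each host was divided into 5 equal sections from the start of transcription. Section 1, nearest the start, held 96 of the 578 peaks (16.6%, interval 13.7 to 19.9) and section 5, at the far end, 99 (17.1%, 14.1 to 20.5). Sections 2 and 3 held 132 each (22.8%, 19.5 to 26.5), and section 4 held 119 (20.6%). Available sequence was spread evenly, 19.7% to 20.2% in each section. With strand ignored and all 787 peaks counted, the outermost sections together held 33.0% (29.8 to 36.4) of peaks and 39.3% of available sequence. The start side and the far side thus had overlapping intervals. The median peak lay 97.8 kb from the start side of its host.

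**Figure D3:**
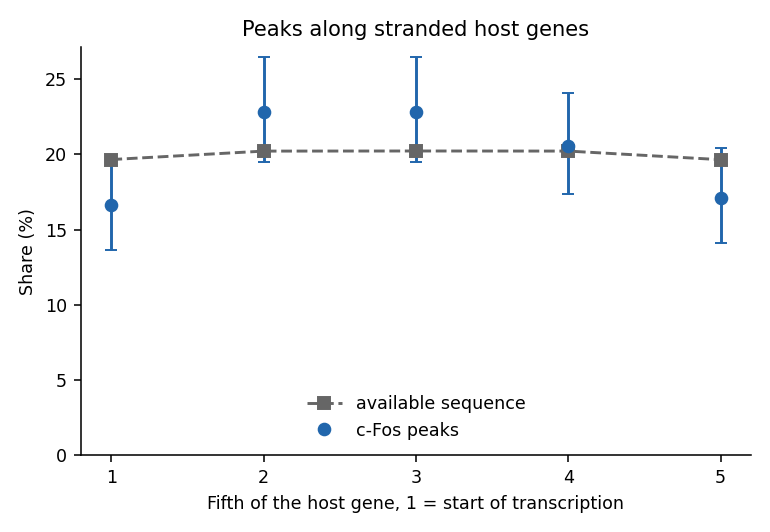
Share of 578 intragenic c-Fos peaks in each of 5 equal sections of hosts with known strand, with section 1 at the start of transcription. Circles with exact 95% intervals are peaks and squares are the available sequence. Sections 1 and 5 held 16.6% and 17.1% of peaks against 19.7% of sequence each.

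Most hosts carried a single peak. Of the 521, 369 (70.8%) had 1 peak, 94 had 2, 30 had 3, and 28 had 4 or more. The 15 genes with most peaks held 88 of the 787 (11.2%). Within hosts with several peaks, successive midpoints were a median of 40.2 kb apart (quartiles 12.7 and 85.1 kb, 266 pairs). Another peak lay within 5 kb of 7.37% of intragenic peaks (interval 5.64 to 9.42), against 6.78% (5.83 to 7.84) of all other peaks. Within 50 kb the shares were 34.3% (31.0 to 37.7) and 32.7% (30.9 to 34.6), so intervals overlapped at both distances.

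Msra, which encodes a methionine sulfoxide reductase that repairs oxidised proteins, had the most peaks, 9 in 333 kb (chr14:64122621-64455903). They lay from 133 to 304 kb from the end of lower coordinate, none in the first 133 kb, and were 1005 to 3819 bp wide. Nell2 had 8 peaks in 309 kb, 4 of them between 52.7 and 66.6 kb and another 3 between 255 and 273 kb. Its neighbour Tmem117, a membrane protein gene 123 kb away, had 5 peaks, 4 of them 230 to 246 kb from its start. Myo3b, which encodes a class III myosin, had 8 peaks, all between 87.7 and 176 kb from the start of a gene of 390 kb. From the first to the last peak the span was 170 kb in Msra, 220 kb in Nell2, 211 kb in Tmem117 and 87.9 kb in Myo3b.

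Ppp3ca, which encodes the catalytic subunit of calcineurin, the calcium-activated phosphatase of synapses, had 6 peaks in 268 kb. Of these, 4 had midpoints between 157 and 166 kb from the end of lower coordinate, and the closest were separated by 186 bp (chr3:136832391-136834141 and chr3:136834328-136837469). Neighbours that close may be parts of 1 enriched stretch, and the list does not tell. Babam2, which encodes a subunit of a deubiquitinase complex, had 6 peaks spread from 7.49 to 338 kb from its start. Myo16, a myosin gene expressed in neurons, had 6, all in the last 184 kb of 481 kb. Slc24a2, with 5, had its widest 20.7 kb from the start. Garem1, an adaptor of growth factor signalling, had 5 in 173 kb.

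**Figure D4:**
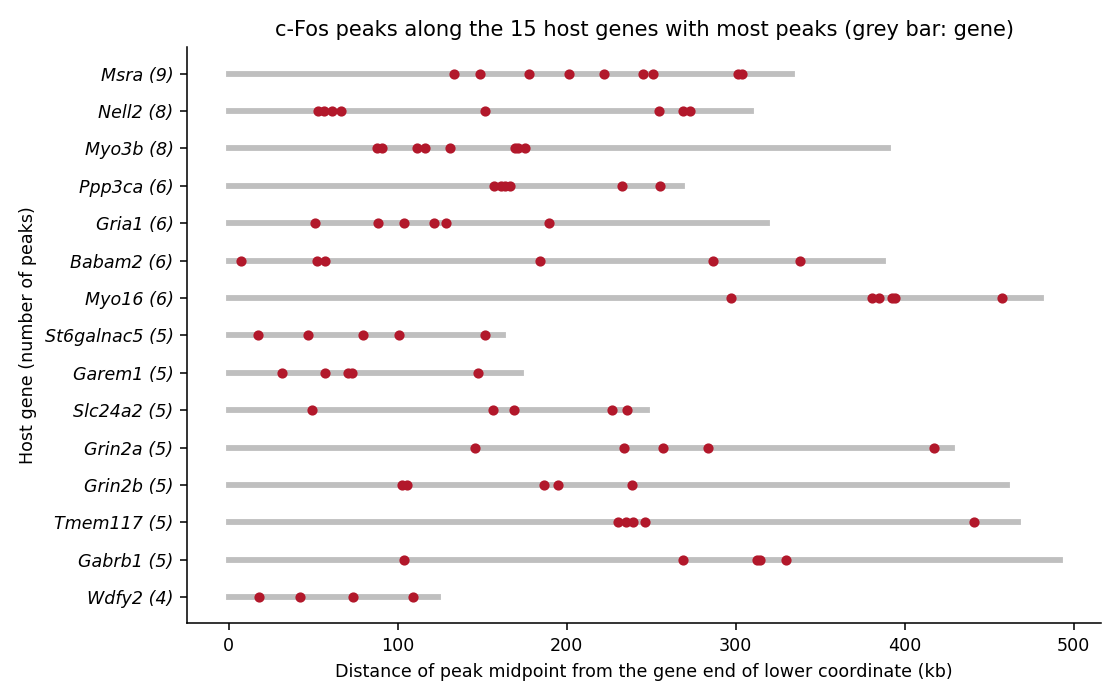
Positions of c-Fos peak midpoints (red points) along the 15 host genes with most peaks (grey bars), in kb from the gene end of lower coordinate. Numbers in brackets are peaks per gene. Peaks of Myo3b, Ppp3ca and Myo16 fell in a limited part of the gene, whereas those of Babam2 and St6galnac5 were spread along it.

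Relative to length, the densest hosts with several peaks were Wdfy2, an endosomal protein gene (4 peaks in 124 kb, 3.23 per 100 kb), St6galnac5 (5 peaks, 3.08), Pla2g4a, which encodes the phospholipase that releases arachidonic acid (4 peaks, 3.04), Garem1 (2.89) and Erich3 (3 peaks, 2.88). The 4 peaks of Pla2g4a lay within 14.3 kb of one another, 84.6 to 98.9 kb from the start. Those of Wdfy2 were spread from 18.2 to 109 kb. Each peak of St6galnac5 was 2004 bp or wider, above the median of the set. The closest pair of midpoints, 1332 bp apart, lay in St7, followed by pairs in Ubr1 (1416 bp), Myo3b (1652.5 bp), Myo16 (1697.5 bp) and Gabrb1 (1780 bp).

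Glutamate receptor genes had the most peaks by count among the lists of synaptic genes. Of 14 mid-length genes in the list of glutamate receptors and their auxiliary subunits, 9 (64.3%, exact interval 35.1 to 87.2) hosted a peak. Genes of the same length bands did so in 33.0%. Together they held 22 peaks, 16 of them in 3 genes. Gria1, which encodes the AMPA receptor subunit GluA1, had 6, at 51.3, 88.3, 104, 121, 129 and 190 kb from the end of lower coordinate. Grin2b, which encodes the NMDA receptor subunit GluN2B, had 5, in pairs at 102 and 105 kb and at 187 and 195 kb, and another at 238 kb. Its widest was chr6:135898468-135901448, 2981 bp. Grin2a, which encodes GluN2A, had 5, spread from 146 to 417 kb. Gria2, Gria3, Grm3, Grik1 and Grik4 had 1 each. Gria4 (378 kb), Grik3 (224 kb), Grin3a (184 kb) and Cacng2 (128 kb) had none, nor did Neto1.

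The list of GABA and glycine receptors was smaller but similar in density, at 5.49 peaks per Mb against 5.42 for the glutamate receptors. Of 9 mid-length genes for GABA and glycine receptors, 5 (55.6%, 21.2 to 86.3) hosted 12 peaks, beside 28.5% in genes of the same lengths. Gabrb1, which encodes the beta 1 subunit, had 5, at 104, 269, 312, 314 and 330 kb from its start. Gabra2, which encodes the alpha 2 subunit, had 3 within 16.6 kb, 17.1 to 33.6 kb from its start. Gabbr2, a GABA-B receptor gene, had 2, while Gabra5 had 1. Gabra3 (224 kb), Gabrb2 (213 kb), Glra2 and Glra3 had none.

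Genes of the cytoskeleton and of small GTPase regulators, which shape dendrites and spines, were hosts in 21 of 38 cases (55.3%, 38.3 to 71.4), beside 31.3% at the same lengths. They held 37 peaks. After Myo16 came Dock10 and Arhgef3, activators of small GTPases, with 4 peaks each. Those of Arhgef3 lay 106 to 157 kb from the start of 289 kb. Dclk1, a microtubule-associated kinase, had 3, at 51.4, 155 and 159 kb. Dclk2, Ank1 and Map2, the dendritic microtubule protein, had 2 each. Ank3, Agap1, Kif26b and Dlc1 were the longest without one, at 494 to 385 kb.

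Genes of cAMP and G protein signalling hosted peaks in 11 of 24 cases (45.8%, 25.6 to 67.2, beside 28.5%). Rapgef4, an exchange factor that cAMP activates directly, had 3. Gnao1, Rapgef5, the phosphodiesterase gene Pde1a and the adenylyl cyclase gene Adcy2 had 2 each, and Plcb4, Pde11a, Pde7b and Pde3a had none. Sodium and calcium channel genes did so in 9 of 19 (47.4%, 24.4 to 71.1, beside 31.0%). Cacna2d1, an auxiliary calcium channel subunit gene, had 3 and Itpr1, the intracellular calcium release channel gene, had 2, whereas Scn2a, Trpc4 and Cacna1a had 1. Itpr2, Trpc5, Cacnb4 and Scn8a had none. Potassium channel genes were at 6 of 15 (40.0%, 16.3 to 67.7, beside 35.1%), with 2 peaks in Kcnj6 and 1 each in Kcnj3, Kcnk2, Kcnq3 and Kcnh1, and none in Kcnh7, Kcnb2, Kcnn2 or Kcnh8.

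In genes of vesicle release and of adhesion the share of hosts was below that of same-length genes, by less than the width of the intervals. Of 17 vesicle release genes, 4 (23.5%, 6.81 to 49.9, beside 28.3%) had a peak: Ppfia2, a scaffold of the active zone, had 2, and Syn2, Sv2b and Sv2c had 1 each. Rims2, Cadps, Syn3 and Stxbp5l, of 486 to 278 kb, had none. Of 34 adhesion and axon guidance genes, 9 (26.5%, 12.9 to 44.4, beside 34.1%) had one. Nell2 alone held 8 of their 17 peaks, Pcdh7 had 2, and Slit1, Ncam1 and Lrfn5 had 1 each. Cdh4, Ephb1, Fstl4 and Cntn3, each over 400 kb, had none. Postsynaptic scaffold and kinase genes were at 5 of 15 (33.3%, 11.8 to 61.6, beside 32.5%). Camk1d, a calmodulin-dependent kinase gene, had 3, and Prkcb, Shank2 and Gphn, the gephyrin scaffold of inhibitory synapses, had 1 each. Prkce, Prkca, Sipa1l1 and Camk4 had none.

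Genes that regulate other genes came next. Of 36 transcription factor and coregulator genes of this length, 15 (41.7%, 25.5 to 59.2, beside 28.3%) hosted a peak, mostly 1 each. Mef2c, an activity-regulated factor of neurons, had 2, at 62.6 and 149 kb from its start. Nr3c2, the mineralocorticoid receptor gene, had 2 that were 1993.5 bp apart, and Ncoa2, a nuclear receptor coactivator gene, had 2. Ebf3 and Rorb had 1. Zfpm2, Maml2, Thrb and Tcf12 had none. Of 16 RNA-binding protein genes, 4 (25.0%, 7.27 to 52.4, beside 24.1%) had one. Celf4 and Tnrc6a had 2 each, Mbnl2 and Elavl2 had 1 each, and Rbfox3, Msi2, Tnrc6b and Rbfox2 had none. Activity-induced genes are mostly short, and 9 of the 55 listed were of this length. Of these 9, 3 (33.3%, 7.49 to 70.1, beside 22.9%) hosted a peak: Arpp21 with 3, and Sv2c and Pde10a with 1 each. Lingo1, Nedd9, Bmp6 and Mapk4 had none.

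**Figure D5:**
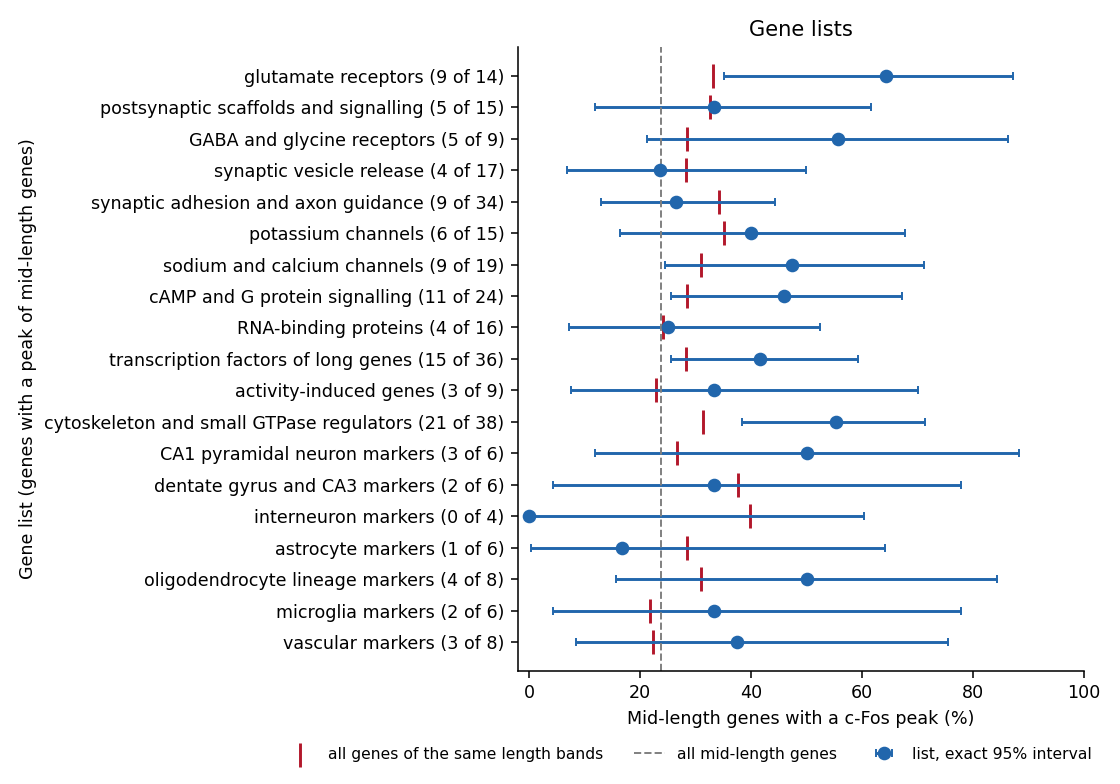
Share of mid-length genes with an intragenic c-Fos peak in each gene list (circles, exact 95% intervals), in all genes of the same length bands (red ticks) and in all mid-length genes (dashed line, 23.7%). Glutamate receptors (64.3%) and the cytoskeleton and GTPase list (55.3%) had intervals above their red ticks. The lists were written with earlier results of these data known, and no set test was made.

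Among the 12 functional lists, the exact interval lay wholly above the share of same-length genes for the glutamate receptors and for the cytoskeleton and GTPase regulators. With only peaks of at least the median width of the list, neither interval did: glutamate receptors were at 42.9% (17.7 to 71.1, beside 18.8%) and the cytoskeletal list at 28.9% (15.4 to 45.9, beside 18.2%). That of the transcription factors did so then, at 33.3% (18.6 to 51.0, beside 16.3%). The lists were written with earlier results of these data known, so an interval above that share is no independent support. Intervals cover counting error over genes, no set test was made, and nothing is called particular to a list. The 12 lists cover 243 of the 2198 genes of this length, so most mid-length genes are in none of them. Of the 243, 99 (40.7%) hosted 163 of the 787 peaks (20.7%). Among all mid-length genes 23.7% were hosts, a share not matched for length. The greater part of the intragenic peaks, and 414 of the 521 hosts, belonged to no list, including those of cell types. As most genes are off the lists, this is no trait of the hosts.

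Markers of cell types were few at this length. Of 6 CA1 pyramidal neuron markers, 3 hosted a peak (50.0%, beside 26.7% of same-length genes). Ndst3, a heparan sulfate enzyme gene, had 4, Nr3c2 had 2 and Man1a 1, while Lmo3 and Epha7 had none. Of 6 markers of dentate gyrus and CA3, Rfx3 and Grik4 had 1 each (33.3%, beside 37.7%). None of the 4 interneuron markers (Reln, Zfp536, Nxph1 and Kcnc2) hosted one, beside 39.7% of same-length genes. The exact interval allows a share of up to 60.2%. Oligodendrocyte lineage markers were hosts in 4 of 8 cases (50.0%, beside 30.9%), Dock10 with 4 peaks, and Mbp, Tcf7l2 and Tnr with 1. Hosts were 2 of 6 microglia markers (Runx1 and Srgap2, 33.3% beside 21.8%). They were 3 of 8 vascular markers (Atp10a, Adgrl4 and Ebf1, 37.5% beside 22.3%) and 1 of 6 astrocyte markers (Rgs20, 16.7% beside 28.4%). Each of these intervals included the share of same-length genes. Several of these genes are also made in neurons, Dock10 and Srgap2 among them, and are on the cytoskeletal list too. Peak positions do not show expression, so the labelled tissue could not be checked against marker levels, and whether other cell types contributed peaks was not tested.

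The X chromosome held 5 intragenic peaks, 0.270 per Mb (0.0875 to 0.629), and the autosomes 782, 1.96 per Mb (1.83 to 2.11). The 5 lay in 5 of 102 genes of this length (4.90%), among them Gria3, against 24.6% on autosomes. Autosomes ranged from 1.14 per Mb on chromosome 17 to 2.83 on chromosome 8. Peaks of all locations together numbered 21 on the X chromosome and 3273 on the autosomes, so the low count on X was not limited to intragenic peaks. Some hosts with many peaks were neighbours: besides Tmem117 and Nell2, Apba2 and Fam189a1 on chromosome 7, with 4 peaks each, were 2.21 kb apart. These were the only pairs within 500 kb among the 28 hosts with 4 or more peaks. A long noncoding RNA gene contained the midpoint of 46 intragenic peaks (5.84%). The share of available sequence inside such genes was not measured, so this share cannot be called high or low.

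At the bounds of the rule, the members in the shortest hosts lay in Map2k4 (100.116 kb), Sestd1 (100.288 kb) and Specc1l (100.364 kb), and peaks in Stard9 (99.948 kb), Spred2 and Ranbp3l fell just outside. At the upper bound, Lrrc7 (494.798 kb) was inside, and Edil3 (501.754 kb), Stpg2 and Car10 outside. Closest to a gene end among the members were peaks in Tusc3 (1041.5 bp), Eya1 and Btbd9, and closest outside were those in Ttc7b (885.5 bp), Mboat2 and Sil1.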

How the data were processed

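CUT&RUN positions were analysed as deposited: the authors deposited a list with 3 columns (chromosome, start, end) and no other value. Its values are positions in bp on mm10, per the labels. Trimmomatic 0.36, Bowtie2 2.2.9, bedtools 2.27.1 and SEACR 1.1 are named in the submitters' processing notes, with no role or order. The sources used here do not give how replicates were combined or the threshold, and weaker peaks are missing from every count. Groups came from sample titles. Positions are 1-based.

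Genes came from a RefSeq table of GRCm38.p6 with 49997 genes. Genes starting below 3000000 were left out, which left 21523 protein-coding genes. Strand and start windows came from a RefSeq table of 32851 windows, which covered 1685 of the 2198 mid-length genes. The outermost start lay within 1 kb of the gene's end in 80.4% of these. Densities divide peaks by the sequence where a midpoint would fall in that class, over the span of genes and peaks. Assembly gaps were not removed. All 95% intervals (Clopper-Pearson for shares, exact Poisson for densities) reflect counting error alone. No test was made, since peaks are not replicates. The share of whole peaks with TGANTCA needs a genome and was not run. Letters were searched in start windows instead, a choice made after the files were seen.

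The members, the 12 functional and 7 cell type lists were chosen with earlier results of these data known. All list entries matched the gene table by symbol or synonym. Named genes were the 15 hosts with most peaks, the 5 densest with several, up to 5 with and 4 without peaks per list, those of the 6 widest peaks and 5 closest pairs, and those at the bounds. Some genes of the lists are not reported here by name. Genes at start windows and some further list members were added after their values were seen. Alternatives were wider peaks, merging within 500 bp, whole peaks, 5 kb from ends, all gene types, single hosts, autosomes and other neighbour distances. Python 3.11.15, numpy 2.4.6, pandas 2.3.3 and scipy 1.17.1 were used. Placement and sequence lengths were tested on toy genes with known answers.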

Additional observations from a re-analysis of the deposited data

How the results depend on the processing

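No paired analysis was possible because values per replicate are lacking, and no replicate could be left out. Merging peaks within 500 bp, requiring the whole peak inside the gene, 5 kb from gene ends, all gene types, single hosts and autosomes alone left the 7 values recomputed (shares, density and width) within their intervals. With only peaks of at least the median width, by construction fewer, 13.6% of mid-length genes hosted a peak, at 0.979 per Mb and a median width of 1663 bp. Then 19.7% of hosts had several peaks and 54 of the 243 listed genes hosted one. At those widths, 6 of 14 glutamate receptor genes (42.9%, interval 17.7 to 71.1) and 11 of 38 cytoskeletal genes (28.9%, 15.4 to 45.9) were hosts, and both intervals included the share of same-length genes, 18.8% and 18.2%. The share of intragenic peaks with a neighbour follows the distance chosen, at 7.37% within 5 kb and 34.3% within 50 kb. At a single distance between those, the share was 15.4% with all hosts and 10.9% without the 15 genes with most peaks, a set chosen after seeing the data. Without them the density was 1.70 per Mb. Depth limits every absence: a gene without a peak may have had one below the unknown threshold.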
